A study of Homo sapiens with 13 samples.

Results

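The RUNX factor genes RUNX1, RUNX2 and RUNX3 and the gene of their shared cofactor, CBFB, were examined in accessibility data of T98G cells, an established human glioblastoma line. Members were all deposited peaks that overlapped 1 of these 4 genes extended by 10 kb on each side, with gene coordinates of GENCODE in hg19. This gave 137 of 129347 peaks, of which 104 belonged to RUNX1, 19 to RUNX2, 6 to RUNX3 and 8 to CBFB. Accessibility was measured by ATAC-seq, in which the Tn5 transposase inserts sequencing adapters into open chromatin, with 3 libraries from G1 and 3 from M-phase. All cells were T98G with no genetic change named in the labels. G1 cells had been kept without serum for 72 h, and M-phase cells had been kept without serum for 48 h, then given serum together with nocodazole for 36 h and collected by shake-off. Nocodazole depolymerizes microtubules and holds cells in mitosis. Serum release accompanied the phase, and NextSeq runs were made of M-phase libraries alone, so that neither can be told apart from the phase. Nothing in the labels says that the replicates came from separate cultures, so the p-values measure the spread between these libraries, which may be technical. The libraries are bulk, and fewer cells with an open site cannot be told apart from a less open site in every cell.

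RUNX proteins are transcription factors that bind DNA through the Runt domain. CBFB does not bind DNA itself and stabilizes the Runt domain on its site. RUNX1 is known for its role in blood stem cells, RUNX2 in bone-forming cells and RUNX3 in T cells and sensory neurons. Each RUNX gene has a distal promoter, P1, and a proximal promoter, P2, which give proteins that differ at the N terminus, and CBFB is transcribed from a single promoter. P1 was taken here as the transcription start sites (TSSs) of the most upstream start codon among transcripts with a consensus coding sequence, and P2 as those of the next. P1 and P2 lay 160.7 kb apart in RUNX1, 94.2 kb apart in RUNX2 and 34.7 kb apart in RUNX3. In these cells the promoters of VIM, EGFR, CD44 and OLIG2 had peaks with mean scaled counts of 84.97 to 393.1 in G1. SOX2 had 11.6, and no peak overlapped a TSS of GFAP, S100B or NES, also looked at as glial or glioma genes. Of 4 blood genes looked at, CD34 alone had a TSS peak, with a mean of 165.7 in G1. These marker genes were chosen after the data had been seen.

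The reference sequence upstream of the promoters is shown because P1 and P2 of RUNX1 and RUNX2 differ in composition. In RUNX2 they also differ in whether they hold the RUNX letters themselves. Each sequence is the 200 bp before the most upstream start site of the gene at that promoter, on the strand of the gene, in hg19. The windows are chr21:36421642-36421841 and chr21:36260988-36261187 on the minus strand for RUNX1 P1 and P2, and chr6:45295694-45295893 and chr6:45389573-45389772 on the plus strand for RUNX2 P1 and P2. They are chr1:25291613-25291812 on the minus strand for RUNX3 P1 and chr16:67062687-67062886 on the plus strand for CBFB. None overlaps an exon of its own gene, and the RUNX2 P2 window overlaps an exon of the noncoding gene ENSG00000271857. Capitals mark matches to RUNX (TGTGGT or TGCGGT), AP1 (TGANTCA), FOX (TGTTTAC or TGTTTAT) and TEAD (ACATTCC) on either strand, where AP1, FOX and TEAD are other families of transcription factors.
RUNX1 P1: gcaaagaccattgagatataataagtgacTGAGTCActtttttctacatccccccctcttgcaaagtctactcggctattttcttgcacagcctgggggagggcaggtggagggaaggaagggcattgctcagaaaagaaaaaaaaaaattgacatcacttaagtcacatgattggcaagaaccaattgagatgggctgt
RUNX1 P2: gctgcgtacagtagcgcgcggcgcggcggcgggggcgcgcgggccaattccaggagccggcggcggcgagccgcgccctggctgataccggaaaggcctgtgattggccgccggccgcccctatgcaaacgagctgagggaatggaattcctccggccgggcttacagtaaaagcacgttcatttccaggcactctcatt
RUNX2 P1: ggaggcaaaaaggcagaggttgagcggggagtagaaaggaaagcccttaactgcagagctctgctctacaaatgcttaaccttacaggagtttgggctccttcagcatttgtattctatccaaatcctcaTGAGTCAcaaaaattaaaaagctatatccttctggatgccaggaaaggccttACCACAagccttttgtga
RUNX2 P2: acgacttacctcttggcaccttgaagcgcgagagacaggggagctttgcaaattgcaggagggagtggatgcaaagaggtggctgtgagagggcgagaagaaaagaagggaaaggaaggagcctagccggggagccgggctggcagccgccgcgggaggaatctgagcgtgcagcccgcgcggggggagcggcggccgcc
RUNX3 P1: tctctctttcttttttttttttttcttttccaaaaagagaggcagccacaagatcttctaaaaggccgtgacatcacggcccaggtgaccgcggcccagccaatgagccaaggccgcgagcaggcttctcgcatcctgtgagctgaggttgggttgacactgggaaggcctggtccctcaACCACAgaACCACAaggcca
CBFB: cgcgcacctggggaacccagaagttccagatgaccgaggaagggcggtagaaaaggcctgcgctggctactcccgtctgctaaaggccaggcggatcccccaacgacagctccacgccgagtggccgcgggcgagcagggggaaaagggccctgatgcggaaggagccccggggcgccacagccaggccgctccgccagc

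RUNX letters were found upstream of RUNX2 P1, with 1 match 18 bp before the start site, and upstream of RUNX3 P1, with 2 matches 20 and 12 bp before it. The other windows shown held none. AP1 letters stood 171 bp before RUNX1 P1 and 70 bp before RUNX2 P1. Over the 200 bp upstream of 18459 protein-coding genes, 12.6% held RUNX letters and 3.90% held AP1 letters. The GC content of the windows was 44% at RUNX1 P1 and 44.5% at RUNX2 P1 against 67% and 65% at the P2 promoters of the same genes. RUNX3 P1, at 53.5%, and CBFB, at 69.5%, were richer in GC than the other P1 windows.

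Values are counts per peak that the authors scaled to the smallest library. A log2 change is the mean of M-phase minus that of G1 on the log2(scaled count + 8) scale, tested with limma over 73121 peaks, and a peak was called at an adjusted p under 0.05. On this scale the change of a peak with few reads comes out too small. Totals of the scaled counts per library were 4191850 to 5092430 in G1 and 5475340 to 6000420 in M-phase. The number of whole reads behind them, recovered from the steps of the values, was 4333935 to 5365024 in G1 and 12470564 to 14202790 in M-phase, so that G1 values carry more counting error.

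All 4 genes had at least 1 peak over a TSS, and RUNX1 and RUNX2 had one assigned to each promoter. Of these 6 TSS peaks, RUNX1 P1, RUNX1 P2, RUNX2 P2 and CBFB were higher in M-phase, RUNX2 P1 was lower, and RUNX3 P1 did not pass the test. Among all 15500 TSS peaks tested, 43.2% were higher and 5.94% lower, with a median log2 change of 0.39. A rise at a promoter was thus frequent in these libraries, and the members are read below against that share.

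**Figure D1:**
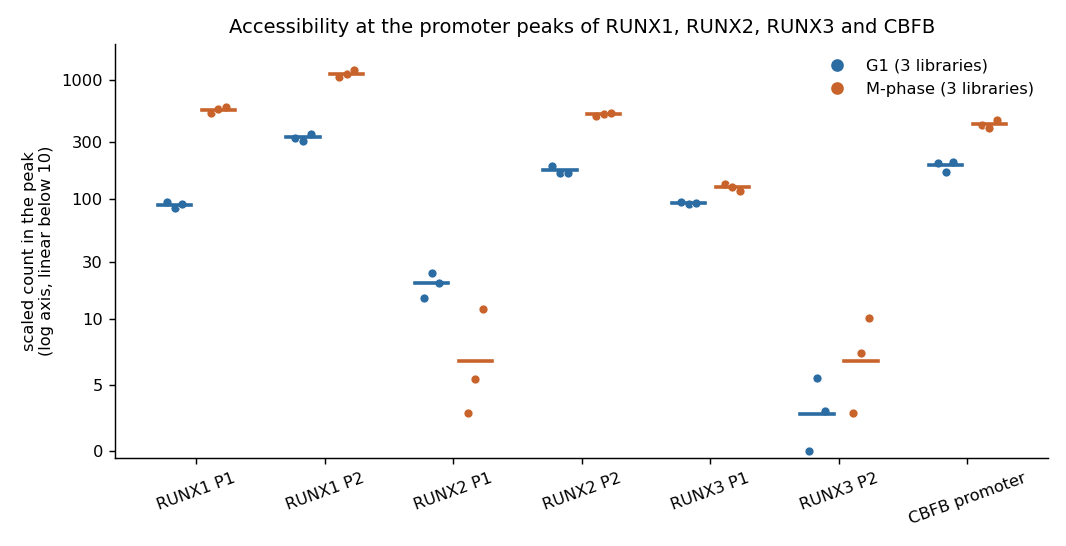
Scaled counts of each promoter peak (y axis, logarithmic above 10 and linear below) in the 3 G1 libraries (blue points) and the 3 M-phase libraries (orange points), with horizontal bars at the means. The phases do not overlap at RUNX1, RUNX2, RUNX3 P1 and CBFB, and M-phase is lower only at RUNX2 P1. The RUNX3 P2 peak, which ends short of the start site, overlaps between the phases.

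RUNX1 P1, the distal promoter used in definitive blood cells, lay in a peak of 2055 bp at chr21:36419959-36422013. It held scaled counts of 94.4, 84.4 and 92 in G1 replicates 1, 2 and 3 and of 524, 571.1 and 598.1 in M-phase replicates 1, 2 and 3. Every M-phase library was thus more than 5 times above every G1 library. The mean rose from 90.3 ± 5.22 to 564.4 ± 37.5 (SD, n = 3), a ratio of 6.25 and a log2 change of 2.54 (SE 0.18, adjusted p = 1.02e-20 from limma). Of the 15500 TSS peaks tested, 3 had a larger log2 change, and under trended loess scaling 5 did. The peak was poor in CpG, with an observed over expected ratio of 0.337 against a median of 0.732 over all 16131 TSS peaks.

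RUNX1 P2, the proximal promoter, lay in a peak of 2372 bp at chr21:36260290-36262661, with a GC content of 70.1% and a CpG ratio of 0.912. Its scaled counts were 328.1, 305.5 and 355 in G1 and 1053, 1118.3 and 1207.3 in M-phase, again without overlap. The mean rose from 329.5 ± 24.8 to 1126 ± 77.5 (SD, n = 3), 3.42 times, with a log2 change of 1.75 (SE 0.15, adjusted p = 4.79e-16 from limma). A larger log2 change was found at 81 TSS peaks, or 0.523%, and at 6.33% under trended loess scaling, where the change at P2 was 0.78.

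RUNX2 P1, the promoter used in bone-forming cells, was marked by a peak of only 192 bp at chr6:45295817-45296008. This peak covers the start of the annotated gene at chr6:45295894. It ends before the first start site with a consensus coding sequence, at chr6:45296054. Its scaled counts were 14.9, 24.2 and 20 in G1 and 2.9, 5.4 and 12 in M-phase, so that the groups did not overlap although the closest libraries differed by little. They rest on 15, 31 and 20 recovered reads in G1 and on 7, 13 and 25 in M-phase. The mean fell from 19.7 ± 4.66 to 6.77 ± 4.7 (SD, n = 3), a log2 change of -0.94 (SE 0.29, adjusted p = 0.00888 from limma). Of TSS peaks, 97.9% had a larger log2 change, and 94.8% did under trended loess scaling. Among the 1036 tested TSS peaks with the lowest means, the 5th percentile was also -0.94. The call was lost without G1 replicate 2 (log2 change -0.82, adjusted p = 0.0544 from limma) and without M-phase replicate 1 (-0.74, adjusted p = 0.0972 from limma). This peak held no CpG, and the 300 bp at its centre held 2 RUNX matches and an AP1 match.

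RUNX2 P2, the proximal promoter with a wider tissue range, lay in a peak of 2952 bp at chr6:45389235-45392186, which also covers the start of ENSG00000271857. It had scaled counts of 190.9, 167.2 and 165 in G1 and of 500.9, 515.9 and 527.4 in M-phase. The mean rose from 174.4 ± 14.4 to 514.7 ± 13.3 (SD, n = 3), 2.95 times, with a log2 change of 1.52 (SE 0.17, adjusted p = 1.24e-11 from limma). The M-phase libraries were close to each other and far above G1. In 1.85% of TSS peaks the log2 change was larger, and in 4.56% under trended loess scaling, where the change at P2 was 0.86.

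RUNX3 P1 lay in a peak of 1088 bp at chr1:25291341-25292428 with scaled counts of 94.4, 90.6 and 93 in G1 and 133.5, 127.3 and 116.9 in M-phase. All M-phase libraries were above all G1 libraries, but the log2 change of 0.41 (SE 0.21, adjusted p = 0.136 from limma) did not pass the test and was close to the median of TSS peaks. The means were 92.7 ± 1.92 and 125.9 ± 8.39 (SD, n = 3). At RUNX3 P2, a CpG-rich promoter that is often methylated in tumours, no peak reached the start site. The nearest peak, of 108 bp at chr1:25256618-25256725, held 0, 5.5 and 3 in G1 and 2.9, 7.4 and 10.1 in M-phase, from 10 and 46 recovered reads in all, and was too low to be tested.

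The CBFB promoter lay in a peak of 2053 bp at chr16:67062505-67064557. Its scaled counts were 199.8, 169.5 and 206 in G1 and 415.2, 398.9 and 457.1 in M-phase, so that every M-phase library exceeded every G1 library. The mean rose from 191.8 ± 19.5 to 423.7 ± 30 (SD, n = 3), 2.21 times, with a log2 change of 1.11 (SE 0.17, adjusted p = 2.43e-07 from limma). A larger log2 change was found at 10.3% of TSS peaks. Under trended loess scaling the change was 0.47 and still called, with a larger one at 18.8% of TSS peaks.

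Per kb of peak, the order of the promoters differed between the phases. In G1, RUNX1 P2 was highest at 138.9 ± 10.4 scaled counts per kb (SD, n = 3), followed by RUNX2 P1 at 102.6 ± 24.3, CBFB at 93.4 ± 9.51 and RUNX3 P1 at 85.2 ± 1.77. The last 3 overlapped with their neighbours in this order. RUNX2 P2 followed at 59.1 ± 4.86 and RUNX1 P1 at 43.9 ± 2.54, both apart from the promoter above them. RUNX3 P2 had the lowest mean, at 26.2 ± 25.5, and its libraries overlapped those of RUNX1 P1. In M-phase, RUNX1 P2 was again highest at 474.8 ± 32.7, and RUNX1 P1 came next at 274.6 ± 18.2. CBFB at 206.4 ± 14.6, RUNX2 P2 at 174.4 ± 4.5 and RUNX3 P1 at 115.7 ± 7.71 followed, all apart from each other. RUNX3 P2 at 63 ± 33.7 and RUNX2 P1 at 35.2 ± 24.5 were lowest and overlapped. RUNX1 P1 thus moved from below CBFB, RUNX3 P1 and RUNX2 P2 to above them, with each library of M-phase in that order. The peaks of RUNX2 P1 and RUNX3 P2 are short, which raises a level per kb.

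In the difference of P1 and P2 within a gene, a single scaling factor per library cancels, apart from the pseudocount. In RUNX1, P1 minus P2 on the log2(scaled count + 8) scale was -1.71, -1.76 and -1.86 in G1 and -0.996, -0.960 and -1.004 in M-phase. P1 was below P2 in every library, and the gap narrowed by 0.79 between the means of -1.78 ± 0.07 and -0.99 ± 0.02 (SD, n = 3). In RUNX2 the same difference was -3.12, -2.44 and -2.63 in G1 and -5.54, -5.29 and -4.74 in M-phase. The gap of RUNX2 thus widened, with means of -2.73 ± 0.35 and -5.19 ± 0.41 (SD, n = 3) and a change of -2.46. The size of that change depends on the pseudocount, since the RUNX2 P1 peak has few reads, and was -3.12 with a pseudocount of 1. A trended loess scaling, which moves peaks by their abundance, gave changes of 1.22 in RUNX1 and -1.72 in RUNX2. In both genes the phases did not overlap, and an exact two-sided permutation test returned p = 0.1, below which 3 against 3 libraries cannot go. In RUNX3, where the P2 peak has few reads, P1 exceeded P2 by 3.25 ± 0.41 in G1 and 3.21 ± 0.46 in M-phase (SD, n = 3), with overlap between the phases and an exact permutation p = 0.8.

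**Figure D2:**
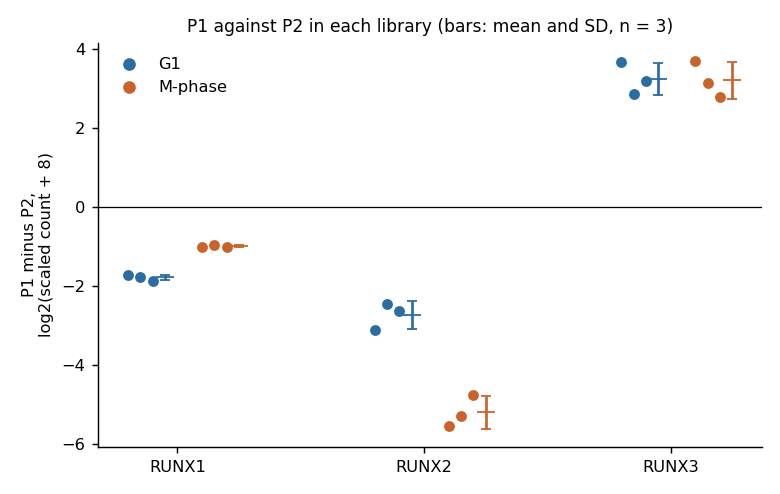
Difference between the P1 and P2 peaks of each RUNX gene on the log2(scaled count + 8) scale (y axis) in the G1 libraries (blue) and M-phase libraries (orange), with bars for the mean and SD of 3 libraries. The difference is smaller in M-phase in RUNX1 (-0.99 against -1.78), larger in RUNX2 (-5.19 against -2.73) and overlaps between the phases in RUNX3.

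Outside the promoter peaks, 18 intragenic peaks of RUNX1 were higher and 1 was lower in M-phase, and 3 of RUNX2 were lower and none higher. Over all members, 72 of 137 peaks passed the filter on low counts, 25 were higher and 5 lower in M-phase, and 42 were not called. The count of higher members was 18 under equal totals. The count of lower members was 8 under equal totals and 3 without M-phase replicate 1 or without M-phase replicate 3. Of all 73121 peaks tested, 14.3% were higher and 13.1% lower. Scaling to equal totals in peaks put the median log2 change of all peaks at -0.23, and 26.0% of the calls over all peaks were higher in place of 52.2%. The groups did not overlap at 27 members that were higher and 8 that were lower, against 19.7% and 18.6% of all peaks tested. The median log2 change was 0.43 for the members tested and 0.02 for all peaks. The 65 members that were not tested had mean scaled counts of up to 10.9.

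RUNX1 has an annotated record of 1217 kb, because a few transcripts start far upstream of P1, and it holds 100 intragenic peaks. Of these, 48 were tested, 18 were higher and 1 was lower. The intragenic RUNX1 peaks named below overlap no annotated exon of RUNX1. Among 25710 peaks tested without a TSS in protein-coding gene bodies, 7.12% were higher and 15.1% lower. Rises were found in 4 of 7 peaks tested downstream of P2, in 3 of 6 between P1 and P2 and in 11 of 35 upstream of P1. Among these rises, peaks centred 1.9 kb from P2 and 2.1 and 2.2 kb from P1 lay close to the promoter peaks. The first of them overlaps an exon. The count of rises was 12 without M-phase replicate 1 and 12 under equal totals, and 19 under trended loess scaling. Summed over the 100 peaks, the scaled count was 1336 ± 89.8 in G1 and 2237 ± 86.9 in M-phase (SD, n = 3), a ratio of 1.67 against 4.03 for the TSS peaks of the gene.

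The largest rise in an intron of RUNX1 was at chr21:36253894-36254617, 6.7 kb downstream of P2. Its scaled counts were 5, 10.9 and 28 in G1 and 62.2, 80.8 and 59.7 in M-phase, a log2 change of 1.86 (SE 0.28, adjusted p = 8.98e-08 from limma). G1 replicate 3 was the highest of its group and still less than each M-phase library. The intronic peak with the highest mean, at chr21:36179666-36181178, held 81.5, 88.3 and 125 in G1 and 262, 231.6 and 236.3 in M-phase, a log2 change of 1.26 (SE 0.20, adjusted p = 2.14e-07 from limma). Also downstream of P2, a peak over the start of the noncoding gene ENSG00000286153 rose by 0.83.

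Upstream of P1, the peak at chr21:36637483-36638324 held 14.9, 29.7 and 19 in G1 and 55.2, 80.8 and 72.2 in M-phase, a log2 change of 1.42 (SE 0.26, adjusted p = 6.69e-06 from limma). At chr21:36570168-36570799 the values were 23.9, 28.9 and 40 in G1 and 102.2, 84.1 and 85.7 in M-phase, a log2 change of 1.36 (SE 0.24, adjusted p = 3.91e-06 from limma). They lie 216.3 and 148.8 kb before P1, and both carried AP1 letters, the first of them also FOX letters. The widely accessible peak at chr21:36628687-36630102 held 101.4, 100 and 121 in G1 and 189.1, 149.6 and 242 in M-phase, with a log2 change of 0.78 that lost its call without M-phase replicate 3 (0.61, adjusted p = 0.0504 from limma).

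A single RUNX1 peak was called lower, at chr21:37173276-37173864, 751.9 kb before P1. It held 35.8, 27.3 and 23 in G1 and 18.9, 9.1 and 3.4 in M-phase, a log2 change of -1.06 (SE 0.30, adjusted p = 0.00349 from limma). The M-phase libraries were spread, and the call was lost without M-phase replicate 3 (-0.76, adjusted p = 0.0718 from limma). RUNX and AP1 letters were both present at its centre.

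**Figure D3:**
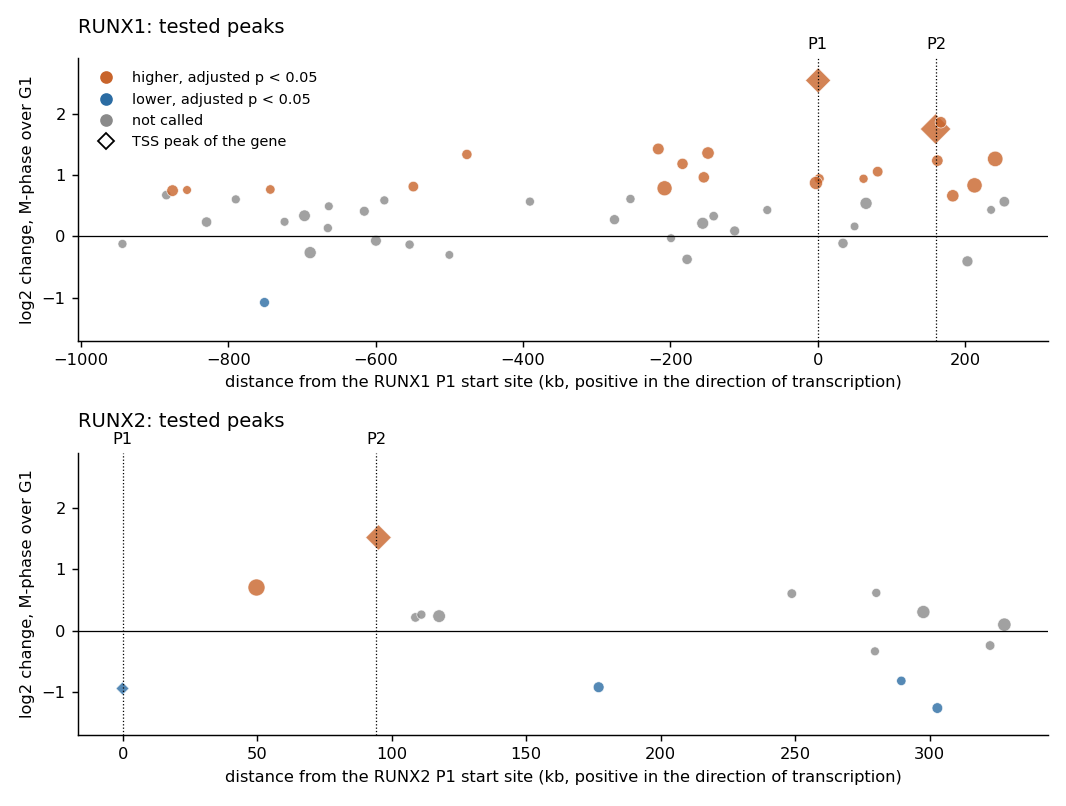
Log2 change of M-phase over G1 (y axis) of the tested RUNX1 and RUNX2 peaks by their distance from the P1 start site in kb (x axis). Diamonds are TSS peaks of the gene, colour gives the call, and the area grows with the mean scaled count. In RUNX1 the 2 promoter peaks, 18 intragenic peaks and 1 peak over the start of another gene are called higher. In RUNX2 the 3 intragenic peaks that are called are lower, and the orange circle is the SUPT3H promoter.

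In RUNX2, 11 of 15 intragenic peaks were tested, 3 were lower and none was higher by limma, and with so few peaks the count is read only beside the 15.1% of gene-body peaks that were lower. At an unadjusted p under 0.05, 4 differed, of which 3 were lower and 1, with a log2 change of 0.61, was higher. By the other test, edgeR on the recovered reads also called 3 lower and none higher. Without G1 replicate 2, 1 was higher. All 15 lay downstream of P2. Their summed scaled count was 405.9 ± 71 in G1 and 392.9 ± 20.3 in M-phase (SD, n = 3), so that the sum changed by less than the spread between G1 libraries.

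The annotated record of RUNX2 runs to chr6:45632086, while its transcripts with a consensus coding sequence end at chr6:45518819. Of the RUNX2 peaks named below, those at chr6:45585295, chr6:45592802, chr6:45598434 and chr6:45623305 lie past that end. The largest fall in RUNX2 was at chr6:45598434-45599263, in an intron of the longer record 302.8 kb from P1. It held 30.8, 41.4 and 59 in G1 and 13.6, 14 and 11.5 in M-phase, a log2 change of -1.26 (SE 0.28, adjusted p = 0.000205 from limma). The M-phase libraries were nearly alike and all under the lowest G1 library. At chr6:45472734-45473251 the values were 50.7, 29.7 and 50 in G1 and 15.7, 20.6 and 19.7 in M-phase, a log2 change of -0.92 (SE 0.27, adjusted p = 0.00605 from limma). Both peaks held FOX letters, as did 9.39% of all peaks and 20.2% of the peaks without a TSS in gene bodies that were lower, and the remaining fall held none. The third fall, at chr6:45585295-45585596, had 34.8, 14.1 and 14 in G1 and 4.9, 11.9 and 6.7 in M-phase, and its log2 change of -0.82 rests on few reads. Without G1 replicate 1 it was -0.50 (adjusted p = 0.27 from limma), and its call was also lost without M-phase replicate 1, without M-phase replicate 3 and under trended loess scaling.

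The centres of the largest fall and of the largest rise among intronic peaks are shown as examples of regions that moved apart in the phases, read on the plus strand of hg19. They are chr6:45598748-45598947 in RUNX2 and chr21:36254155-36254354 in RUNX1, and capitals mark motif letters as above.
RUNX2 intron: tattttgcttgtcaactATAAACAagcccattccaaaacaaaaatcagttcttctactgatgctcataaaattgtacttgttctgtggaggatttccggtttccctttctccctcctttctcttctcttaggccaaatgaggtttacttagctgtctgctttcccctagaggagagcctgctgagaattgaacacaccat
RUNX1 intron: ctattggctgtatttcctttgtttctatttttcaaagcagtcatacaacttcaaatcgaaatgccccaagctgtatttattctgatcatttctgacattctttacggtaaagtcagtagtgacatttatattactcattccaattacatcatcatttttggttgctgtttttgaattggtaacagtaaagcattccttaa

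The RUNX2 sequence held a single match, to FOX, and the RUNX1 sequence held none of the 4 motifs and had a GC content of 32%. The intronic RUNX2 peaks with the highest means differed little between the phases. At chr6:45623305-45624139 the scaled counts were 80.5, 64.1 and 108 in G1 and 90.2, 96 and 80.4 in M-phase, with a log2 change of 0.10 (SE 0.22, adjusted p = 0.801 from limma). At chr6:45592802-45594601 they were 64.6, 59.4 and 88 in G1 and 87.3, 102.6 and 75.5 in M-phase, with a log2 change of 0.30 (SE 0.22, adjusted p = 0.343 from limma). Both overlapped between the phases. The promoter of SUPT3H, a gene that overlaps RUNX2 in the opposite direction, lies between P1 and P2 and rose from 197.2 ± 15.7 to 328.9 ± 30.7 (SD, n = 3), a log2 change of 0.71 (SE 0.18, adjusted p = 0.00102 from limma). That call was lost under trended loess scaling, with 0.12.

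RUNX3 and CBFB had few peaks outside their promoters. Of 5 RUNX3 peaks that overlap no TSS of the gene, the one near P2 included, 2 were tested, and in the reported setting neither was called or had an unadjusted p under 0.05. The peak at chr1:25275833-25276127 held 5, 21.9 and 32 in G1 and 24.3, 24.7 and 24.1 in M-phase, with a log2 change of 0.37 (SE 0.30), and that at chr1:25224005-25224449 held 17.9, 39.8 and 18 against 7, 20.2 and 18.3, with -0.51 (SE 0.30). G1 libraries were more spread than M-phase libraries at the first of them, and the second was called lower under equal totals (-0.76, adjusted p = 0.0419 from limma). The flanking peak at chr1:25224798-25224904 had a mean of 5.73 and was not tested.

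In CBFB, 1 of 6 intragenic peaks was tested, at chr16:67089719-67090009, with 9.9, 16.4 and 10 in G1 and 14.8, 22.2 and 20.2 in M-phase. Its log2 change of 0.43 (SE 0.29, adjusted p = 0.281 from limma) did not pass, and the phases overlapped. The intragenic peak at chr16:67131017-67131179 had a mean of 7.98 and was not tested. Downstream of CBFB, the promoter of PHAF1 rose from 84.4 ± 17.5 to 150 ± 31.1 (SD, n = 3), with a log2 change of 0.77 (SE 0.21, adjusted p = 0.00291 from limma) that lost its call under equal totals.

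**Figure D4:**
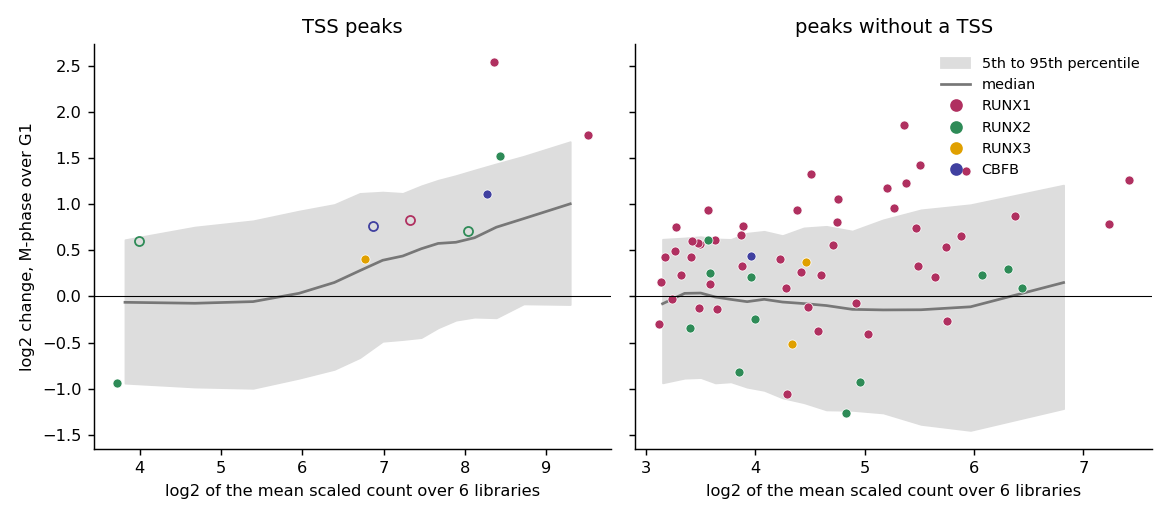
Log2 change of M-phase over G1 (y axis) against the log2 of the mean scaled count over 6 libraries (x axis) for tested members, coloured by gene, in TSS peaks (left, open circles for TSSs of other genes) and in peaks without a TSS (right). The grey band spans the 5th to 95th percentile of all tested peaks of that class at that level, the grey line is their median. RUNX1 P1 at 2.54 and RUNX2 P2 at 1.52 lie above the band, and CBFB at 1.11 and RUNX3 P1 at 0.41 lie inside it. RUNX1 P2 at 1.75 lies past the right end of the band and RUNX2 P1 at -0.94 short of its left end, where no percentile is drawn.

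Motif letters were counted at the centre of each peak. Within 300 bp at the peak centre, 33 of 137 members, or 24.1% (Wilson 95% interval 17.7 to 31.9), held RUNX letters, against 26.3% of all peaks. AP1 letters were found in 30.7% of members and 16.2% of all peaks, FOX letters in 12.4% and 9.39%, and TEAD letters in 7.30% and 4.87%. Of the 18 members without a TSS that were higher in M-phase, 10 held AP1 letters, as did 41.2% of all such peaks that were higher in gene bodies. Of the 4 that were lower, 2 held RUNX letters, against 36.6% of all such peaks. These shares are descriptions, and a match of letters is not a binding site.

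The promoters whose levels in all 6 libraries were most like those of a member were compared over 13129 or 13130 protein-coding promoter peaks, by the root mean square difference in log2(scaled count + 8). CBFB was closest to GSS and MYH7B, which share a peak, at 0.045, to the shared peak of FAM220A and SAGSIN1 and to SLC30A5, and RUNX1 P2 to SEC16A at 0.075, WNK1 and SPAG9. RUNX2 P2 was closest to FAM174C at 0.098, TBC1D10A and CIRBP, and RUNX3 P1 to E2F4 at 0.065, MRPL20 and ADAMTS12. RUNX2 P1 was closest to DEFB1 at 0.20, TFRC and ZFP64. RUNX1 P1 had no match as near, with RNASEK at 0.36 followed by OR1F1 and ENSG00000286098. At RNASEK the scaled counts were 125.3, 120.3 and 119 in G1 and 506.3, 473.4 and 435 in M-phase, so that it also rose but by less.

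Promoters of genes that work with RUNX proteins are read against all TSS peaks, of which 43.2% were higher and 5.94% lower. For each listed gene the strongest promoter peak was taken. The median log2 change of TSS peaks rose with level, from -0.06 among the 1036 with the lowest means to 1.01 among the 1034 with the highest. A list of strongest peaks is thus not matched in level to all TSS peaks. Of 30 cofactors and partners, 28 had a tested promoter peak, with 22 higher and 1 lower and a median log2 change of 0.76 against 0.39 over all TSS peaks. EP300, an acetyltransferase that coactivates RUNX proteins, rose by 1.96 (adjusted p = 6.94e-18 from limma), from 320.9 ± 63.8 to 1253 ± 78.5 (SD, n = 3). SIN3A, a corepressor scaffold, rose by 1.44, and PRMT6, an arginine methyltransferase that acts with RUNX1 in repression, fell by 0.69 on the log2 scale (adjusted p = 0.00282 from limma).

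Of 20 kinases, ubiquitin ligases and other genes known to modify RUNX proteins, 16 had a higher promoter peak and none a lower one by limma, by edgeR or at an unadjusted p under 0.05, while 1 was lower under equal totals. The E3 ligase SMURF2, which marks RUNX2 for degradation, rose by 1.56. Of 30 textbook RUNX targets, 12 had no TSS peak, among them the bone genes SPP1, BGLAP and IBSP and the blood genes SPI1, MPO and CSF2. Other bone and blood genes of the list had one, such as COL1A1, SP7 and CSF1R, with G1 means of 357.5, 41.5 and 95.8. Of the 18 with a tested promoter, 8 were higher and none was lower by limma, by edgeR or at an unadjusted p under 0.05, with a median of 0.46. That count is close to the 43.2% of all TSS peaks that were higher, and under equal totals 7 targets were higher and 3 lower. ID1, an inhibitor of differentiation factors, rose by 1.66, and CDKN1A, a cell cycle inhibitor, by 1.10.

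Under trended loess scaling, which removes a trend with abundance, the cofactors had 5 higher and 3 lower promoters, the modifiers 7 and 2 and the targets 2 and 3, and the medians of the lists were 0.05, 0.27 and 0.00099. Of all 15500 TSS peaks, 3300 were then higher and 2658 lower, with a median of 0.06. By edgeR on recovered reads the lists had 22, 16 and 8 higher promoters. The rises at RUNX1 P1, RUNX1 P2, RUNX2 P2 and CBFB were called under every scaling tried, with log2 changes under loess of 2.00, 0.78, 0.86 and 0.47.

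**Figure D5:**
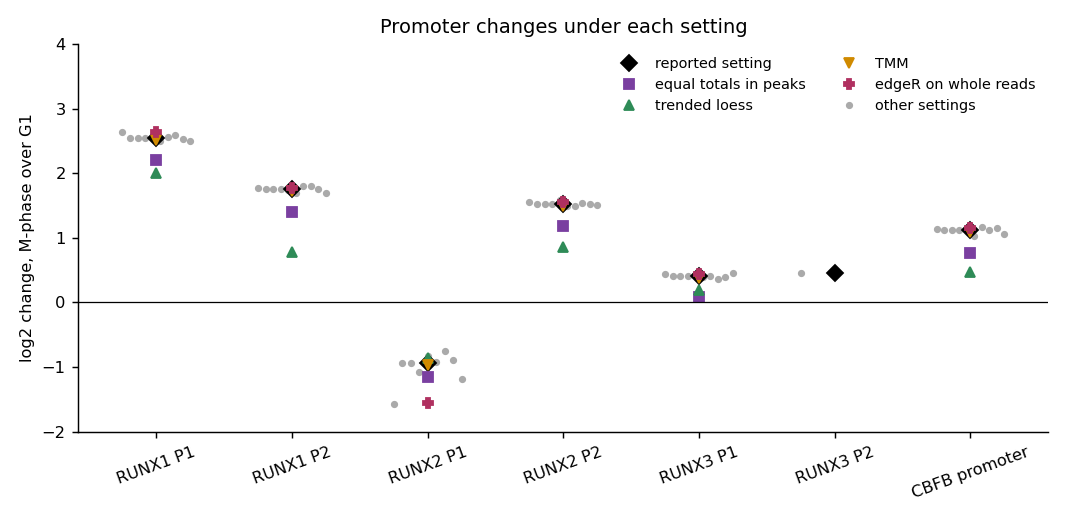
Log2 change of each promoter peak (y axis) in the reported setting (black diamonds), under other scalings and tests (coloured symbols) and under the remaining settings (grey points). RUNX1 P1 stays between 2.00 and 2.65, RUNX2 P1 is below 0 in every setting, and RUNX3 P1 comes down to 0.08 under equal totals.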

How the data were processed

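ATAC-seq peak counts from T98G cells in G1 and M-phase were used, with 3 columns of values per phase. Following the methods of the study, the authors removed adapters with cutadapt, trimmed the 3′ end by a base, mapped reads to hg19 with Rbowtie in QuasR, keeping 1 location for reads with up to 3, discarded mitochondrial reads (samtools), and made broad peak calls from merged replicates (macs2). Tool versions and any shift of read ends for Tn5 are not given in the sources used here. The deposited signal values are counts in peaks scaled to the smallest library and rounded to 0.1. HiSeq and NextSeq runs of an M-phase replicate share 1 column, and how they were joined is not given. A deposited log2 column with its SD, the authors' own comparison, was not used. No column of per-sample values was left unused (0).

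The filter required a total of at least 15 and, in 3 or more libraries, a value that would be 10 or more in a median-sized library. limma 3.58.1 with a mean-variance trend in R 4.3.3 was fitted to log2(scaled count + 8) over all 73121 peaks kept, with Benjamini-Hochberg adjustment. Since the deposited values are scaled, edgeR 4.0.16 on recovered reads was an alternative. At least 99.91% of values in each library lay within 0.05 scaled counts of a whole multiple of 1 read, which was worth 0.41 to 0.48 in M-phase. edgeR called 9025 peaks lower and 9899 higher. The fit was also run on simulated data. Genes and exons came from GENCODE release 44 on GRCh37 (hg19), and sequences from the GRCh37 genome. A TSS peak overlaps a TSS of its gene, and a peak within 500 bp of a promoter without one was assigned to it.

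Members, gene lists and tests were chosen with earlier results of these data known. Named peaks are all promoter peaks and, per gene among the others, the 3 highest means, the 4 largest called falls and the 3 largest called rises. From the lists, the largest changes are named, and a gene among them is not reported here. Replicate numbers did not pair the libraries. Exact tests used scipy 1.17.1, and Python 3.11.15, numpy 2.4.6, pandas 2.3.3 and matplotlib 3.10.9 were used. Alternatives were TMM, equal totals and trended loess scaling, a pseudocount of 1, other filters, a replicate block, each library left out, edgeR, other gene limits and other motif windows. Motif shares by peak class and list counts and promoter ranks under other settings were added after seeing the data. The chromatin fraction and input samples were not used here.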

Additional observations from a re-analysis of the deposited data

How the results depend on the processing

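The count of lower members was 8 under equal totals, 2 with at least 10 in every library and 2 within the span of the consensus coding transcripts, against 5, and 3 to 5 when each library was left out. The count of higher members was 18 under equal totals, 18 with at least 10 in every library and 15 within that span, against 25, and 19 to 26 when each library was left out. The log2 change of RUNX2 P1 ranged from -1.18 to -0.74 on leaving out a library. P1 minus P2 in RUNX3 changed by -0.29 to 0.17 on leaving out a library, with both directions reached, and by -0.83 with a pseudocount of 1. Among named peaks that were not called, chr6:45592802 gave -0.018 under equal totals, chr6:45623305 gave -0.23 under equal totals, -0.017 under trended loess and -0.068 to 0.27 on leaving out a library, and chr1:25275833 gave -0.096 to 0.72. The share of members with RUNX letters was 16.8% in 200 bp. With the replicate block the members had 5 lower and 25 higher calls, and all peaks had 10063 lower and 10881 higher. It changed no call of a named peak. Same-numbered libraries correlated in their deviations from the phase means by 0.0059, -0.010 and 0.028, so that the numbers do not pair them. Over all peaks, requiring at least 10 in every library gave 5001 lower and 9567 higher, against 9548 and 10439 in the reported setting, and equal totals gave 18092 and 6342. The values at RUNX2 P1 rest on 66 recovered reads in G1 and 45 in M-phase, and those at RUNX3 P2 on 10 and 46. The causes were not tested.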
